A study of Mus musculus with 12 samples.

Results

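Th17 cells were compared with Th1 and Th2 cells through 3 RNA libraries, 1 for each culture, of mouse CD4+ T cells polarized for 3 days. A locus belonged to the comparison when its level in the Th17 library, as log2(FPKM + 0.5), lay above the level in both other libraries or below it in both. FPKM is fragments per kilobase of transcript per 1e6 mapped fragments. Loci needed at least 2 FPKM in 1 of the 3 libraries and a length of at least 300 bp. Of 23700 loci in the files, 10355 met both conditions and 8565 of these differed in 1 direction, 4395 higher (42.4% of those tested) and 4170 lower in Th17 (40.3%). The other 1790 lay between Th1 and Th2 or were equal to one of them. Just inside the level threshold stood 4921533I20Rik, at 2.0013 FPKM in its highest library, and just outside it Rufy3, at 1.9983.

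All cells came from spleen and lymph nodes of C57BL/6J mice, sorted as naive CD4+CD44-CD25-CD62L+ cells, and every culture was stimulated on plates through CD3 and CD28 (each antibody at 10 μg/ml). The Th1 culture was wild type and received 20 ng/ml IL-12 with neutralizing antibody to IL-4. The Th2 culture was wild type and received 20 ng/ml IL-4 with antibody to IFN-γ, while the wild type Th17 culture received 20 ng/ml IL-6, 2 ng/ml human TGF-β1 and both antibodies (10 μg/ml each). The Th17 culture was thus the only one of the 3 given TGF-β1. Further RNA libraries came from fresh naive cells (1 library) and from induced regulatory T (iTreg) cultures, which received 100 IU/ml IL-2 and 5 ng/ml human TGF-β1, with 3 libraries of wild type (WT) cells and 3 of cells deficient in Bach2 (Bach2KO). Binding of Bach2 was measured by chromatin immunoprecipitation (ChIP) in WT iTreg cells. The labels do not give the age of the animals or say whether libraries are separate animals.

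Th17 cells are CD4+ helper T cells that secrete IL-17A and IL-17F and act at mucosal surfaces against extracellular bacteria and fungi. IL-6, acting through STAT3, and TGF-β together start the Th17 programme, whereas T-bet (Tbx21) directs Th1 cells and GATA3 directs Th2 cells. IL-23 and IL-1 sustain the lineage through receptors that arise during polarization.

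With 1 library per culture, differences between Th17, Th1 and Th2 have no replicate check and no p-value was computed. The precision of a level was read from its deposited confidence bounds, which cover counting error only. Reads implied over loci with a single start came to 12.4 M in Th17 and to 13.9 M or more in Th1 and Th2 (M for 1e6), and 9903, 9728 and 9806 loci reached 2 FPKM. All 10 listed CD4 T cell markers passed the filter and none differed 2-fold from both libraries. Listed B cell markers summed to 1.29 FPKM in Th1, 2.86 in Th2 and 3.66 in Th17. Listed myeloid markers summed to 13.4, 4.58 and 3.09 FPKM, with 6 of 11 at 0 in all 3. Dendritic cell and MHC class II markers summed to 136, 207 and 19.0 FPKM. Across the WT iTreg libraries the B cell list summed to 12.9 to 75.2 FPKM and the dendritic cell list to 29.7 to 251. Xist was at 133.9, 156.2 and 90.4 FPKM in Th1, Th2 and Th17 and at 48.7 in naive cells, with Y-linked RNA at or near 0. In every iTreg library Xist was at or near 0 and Y-linked genes were expressed, so the helper and naive cells on one side and the iTreg cells on the other differ in sex.

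More loci set the Th17 library apart from the other 2 than set apart either Th1 or Th2. At a difference of 2-fold or more on the log2(FPKM + 0.5) scale, 531 loci were higher in Th17 than in both (5.13% of 10355) and 653 were lower (6.31%). By the same rule 1.88% of loci were higher and 0.338% lower in Th1, and 1.72% were higher and 2.42% lower in Th2. Differences of 4-fold or more numbered 173 higher and 157 lower in Th17, and of 8-fold or more 78 higher and 51 lower. The deposited bounds of Th17 were clear of both other libraries for 525 of the 531 and 645 of the 653 loci. The median difference over all tested loci was -0.01 against Th1 and 0.04 against Th2. When the 3 libraries were scaled to 1 common total over the loci of 300 bp or more, these medians moved to 0.16 and 0.18, and 724 loci were higher and 523 lower. At the 2-fold threshold the last loci inside were Cited2 (13.8, 15.0 and 30.4 FPKM in Th1, Th2 and Th17) and Caprin2 (4.60, 8.26 and 2.05). The first outside were Tspan5 (15.9, 11.3 and 32.3) and Rad51l1 (3.86, 6.13 and 1.68).

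**Figure D1:**
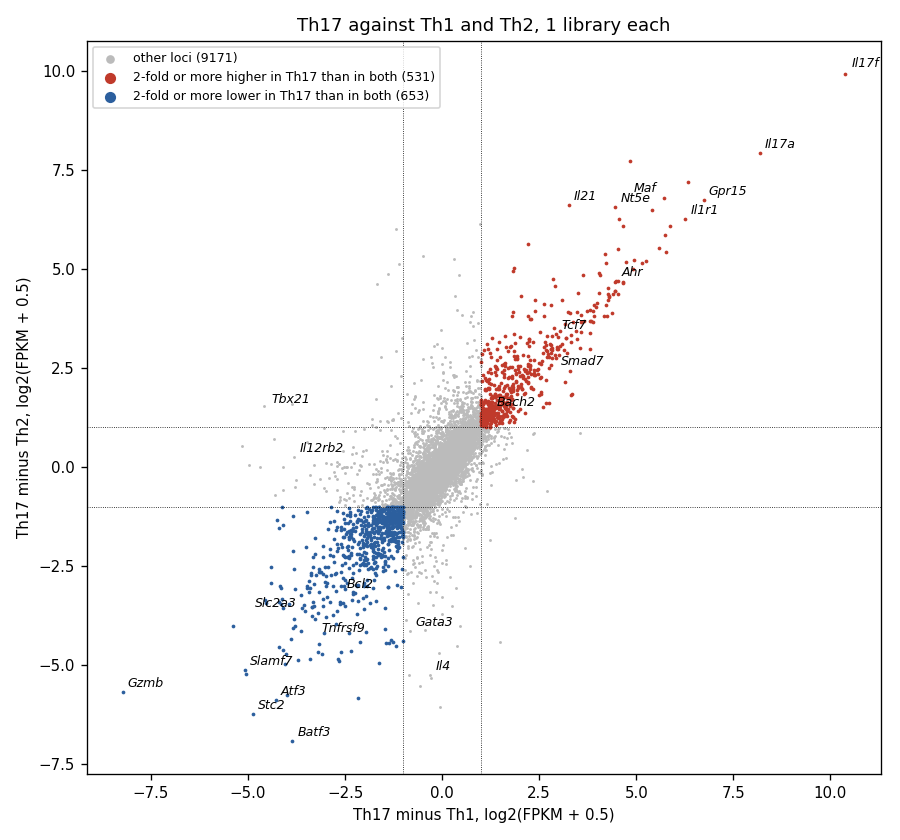
Each point is 1 of 10355 loci, with its difference between Th17 and Th1 on the x axis and between Th17 and Th2 on the y axis, both as log2(FPKM + 0.5) from 1 library each; dotted lines mark 2-fold. The 531 red loci were 2-fold or more higher in Th17 than in both with Il17f farthest from 0 on the smaller difference, the 653 blue loci were lower in both, and the Th1 gene Tbx21 and the Th2 genes Gata3 and Il4 lie away from the diagonal.

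The cytokine genes that define the lineage led the loci that were higher in Th17. Il17f (mm9 chromosome 1, 20767230 to 20774351, minus strand), which encodes IL-17F, stood at 668 FPKM in Th17 (bounds 656 to 680.2), was listed at 0 in naive and Th1 cells and was at 0.191 in Th2. Its neighbour Il17a (chromosome 1, 20720986 to 20724577, plus strand), which encodes IL-17A, stood at 145 FPKM, was at 0 in naive and Th1 cells and at 0.0960 in Th2. Both genes were at or near 0 in the other 3 of these libraries, and Il17f was the more abundant of the pair per length. Ccl20, the chemokine that attracts cells bearing Ccr6, was at 33.2 FPKM in Th17, 0.0791 in Th1 and 0 in Th2 and naive cells. Il21, a cytokine that acts back on Th17 cells and on B cells, was at 88.2 FPKM in Th17 against 8.78 in Th1 and 0.405 in Th2. It was the one of the 4 that Th1 cells also held above 2 FPKM.

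The same list of 15 genes held cytokines that were low or not higher in Th17. Il22, often made beside IL-17, was at 0.0291 FPKM in Th17 and 0 in the other 2, and Il9 at 0.774, so both missed the filter. Il10, an anti-inflammatory cytokine gene, was at 2.47 FPKM in Th17, between 0.0855 in Th1 and 3.28 in Th2. Tgfb3, which encodes TGF-β3, was lower in Th17, at 6.03 FPKM against 24.4 and 23.7. Tgfb1, which encodes TGF-β1, was abundant in all 3 and lower by less than 2-fold, at 78.4 FPKM against 95.4 and 123. Of the 8 genes on the list that passed the filter, 4 were 2-fold or more higher, 3 were lower, 1 of them by 2-fold, and 1 lay between. Over all 10355 loci 42.4% were higher and 40.3% lower, 5.13% and 6.31% by 2-fold or more. Those shares are the ones to set beside this list and each later one.

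Nuclear receptors bind elements that hold AGGTCA, and the bases before the start of genes from the Th17 lists were searched for it because these genes differed together. The windows are the 250 bases before the start in RefSeq (GRCm38.p6), 5′ to 3′ on the gene's strand, with AGGTCA or its reverse complement TGACCT in capitals. A window was found for 14 of the 19 genes that were 2-fold higher on the Th17 lists, and 5 of these 14 hold the motif on either strand. Of 27025 genes with a window, 13.8% hold it. A match is a description of these letters and not evidence of binding. The 5 windows are shown because they hold a match, and windows of listed genes without one are not shown. They lie at chr1:20730655-20730904 (plus strand) for Il17a, chr1:20784271-20784520 (minus) for Il17f, chr1:83116516-83116765 (plus) for Ccl20, chr6:67491856-67492105 (minus) for Il23r and chr17:8235793-8236042 (plus) for Ccr6, the first listed of 2 starts.
Il17a: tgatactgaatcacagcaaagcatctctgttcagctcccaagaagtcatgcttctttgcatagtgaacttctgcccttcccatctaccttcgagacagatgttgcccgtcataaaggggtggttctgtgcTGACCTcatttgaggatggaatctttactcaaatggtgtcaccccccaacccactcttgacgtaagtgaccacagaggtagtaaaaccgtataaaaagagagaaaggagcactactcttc
Il17f: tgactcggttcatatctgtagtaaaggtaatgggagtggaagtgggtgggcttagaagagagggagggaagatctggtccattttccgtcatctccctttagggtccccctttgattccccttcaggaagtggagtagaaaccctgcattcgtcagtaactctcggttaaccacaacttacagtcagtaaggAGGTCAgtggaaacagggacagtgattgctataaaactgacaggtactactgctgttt
Ccl20: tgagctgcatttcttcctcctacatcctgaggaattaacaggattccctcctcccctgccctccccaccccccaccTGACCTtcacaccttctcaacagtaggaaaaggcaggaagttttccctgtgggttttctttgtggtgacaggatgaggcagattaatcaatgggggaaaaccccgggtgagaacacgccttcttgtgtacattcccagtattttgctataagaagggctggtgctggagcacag
Il23r: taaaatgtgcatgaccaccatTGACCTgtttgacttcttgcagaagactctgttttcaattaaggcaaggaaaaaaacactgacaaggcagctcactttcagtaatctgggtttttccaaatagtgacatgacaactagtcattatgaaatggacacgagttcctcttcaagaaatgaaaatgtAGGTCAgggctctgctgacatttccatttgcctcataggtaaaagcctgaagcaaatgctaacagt
Ccr6: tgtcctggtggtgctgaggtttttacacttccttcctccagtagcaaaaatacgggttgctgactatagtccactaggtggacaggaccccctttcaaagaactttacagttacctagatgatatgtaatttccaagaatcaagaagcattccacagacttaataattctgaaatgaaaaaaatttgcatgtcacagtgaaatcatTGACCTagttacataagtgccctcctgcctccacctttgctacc
Counted from the start, the match begins at -120 in Il17a, -58 in Il17f, -174 in Ccl20 and -44 in Ccr6, and Il23r has matches at -229 and -66. Il21, at 88.2 FPKM in Th17, has none in its window, nor have Il1r1, Il6st, Il17re and Rora in theirs.

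Receptors that let Th17 cells respond to IL-1, IL-23 and IL-17 family cytokines were higher as well. Il1r1, the IL-1 receptor, was at 38.8 FPKM in Th17 and at 0.0102 in Th1 and 0.0102 in Th2. Il23r, the specific chain of the IL-23 receptor, was at 5.65 FPKM (about 251 implied reads) against 0.330 (16 reads) and 0.0406 (2 reads). Ccr6, the receptor for the Ccl20 product, was at 17.4 FPKM against 0.167 in Th1 and 0 in Th2. The 3 receptors were thus near the floor in both other helper cultures. Il17re was at 11.4 FPKM against at most 0.0821, and Il17ra, a chain shared by IL-17 receptors, at 132 against 45.0 and 21.7. The IL-6 receptor chains differed less: Il6st (gp130) was at 41.4 FPKM against 19.6 and 13.4. Il12rb1, the chain that the IL-12 and IL-23 receptors share, went the other way, at 18.8 FPKM in Th17, 53.3 in Th1 and 49.3 in Th2. Of 17 receptor and surface genes past the filter, 10 were 2-fold or more higher and 2 lower, with a median difference of 1.54 against Th1 and 2.97 against Th2.

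Among listed Th17 transcription factors, some were higher in Th17 than in both other cultures and others lay between them. Maf, which encodes c-Maf, was at 159 FPKM in Th17 against 2.56 in Th1 and 0.959 in Th2, and Ahr, the aryl hydrocarbon receptor, at 49.2 against 1.72 and 1.42. Rora, which encodes a nuclear receptor, was at 30.8 FPKM against 3.99 and 1.35. These 3 genes were each at under 5 FPKM in both other cultures. Ikzf3 (Aiolos) was at 104 FPKM against 11.4 and 13.0. Its level was not particular to Th17, with WT iTreg libraries at 104, 107 and 102 FPKM and naive cells at 24.9. Stat3, Batf and Irf4, which act early in Th17 differentiation, lay between Th1 and Th2, for example Irf4 at 229 FPKM in Th17, 162 in Th1 and 251 in Th2. Bhlhe40, a helix-loop-helix factor linked to cytokine production, was 2-fold lower, at 75.0 FPKM against 165 and 160.3. Of 16 factors past the filter, 5 were 2-fold or more higher and 1 lower.

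Bach2 itself, the repressor studied in the series, was at 64.6 FPKM in Th17 against 26.2 in Th1, 24.1 in Th2 and 23.4 in naive cells, and at 17.9, 17.7 and 17.2 in the WT iTreg libraries. Among the libraries with an intact gene, the Th17 library held the highest level. Of its partners and rivals, the small Maf gene Mafk was higher in Th17 (11.6 FPKM against 4.68 and 4.57). Mafk was higher still in naive cells (63.0) and WT iTreg cells (18.6, 18.1 and 17.0). Atf3 (0.0870 against 10.9 and 33.9) and Batf3 (0 against 6.77 and 59.9), both of the AP-1 superfamily, were lower. Of 16 loci past the filter on the list with AP-1 and small Maf factors, 7 were higher, 8 lower and 1 between. By 2-fold or more 3 were higher and 2 lower.

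Several genes of the TGF-β pathway were higher in Th17 than in Th1 and Th2, at more than 1 level of the pathway. Tgfbr2, the ligand-binding receptor, was at 53.0 FPKM in Th17 against 18.6 in Th1 and 18.8 in Th2. The feedback inhibitor Smad7 was at 27.9 FPKM against 3.48 and 3.72, with the corepressor genes Ski (65.7 against 18.7 and 20.1), Skil (35.3 against 9.38 and 15.8) and Tgif1 (36.4 against 8.34 and 8.90). Itgae, the αE integrin that TGF-β induces, was at 5.70 FPKM against at most 0.347, and at 91.1, 108 and 71.2 in WT iTreg cells. In contrast Lrrc32 (GARP), which holds latent TGF-β at the surface, was lower at 0.925 FPKM against 15.4 and 11.3, as was Ltbp3, a latent TGF-β binding protein. Of 22 genes past the filter, 14 were higher and 5 lower, 8 and 3 of them 2-fold or more, and the medians were 0.64 against Th1 and 0.58 against Th2. Smad7 was higher still in cells outside the Th17 culture, at 74.7 FPKM in naive cells and 66.7, 69.9 and 63.6 in WT iTreg cells. The whole list summed to 391 FPKM in Th17, 438 in naive cells and 681 to 753 in WT iTreg cells. The part of the medium in these levels was not tested.

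On the list for IL-6 and STAT3, Socs3, the feedback inhibitor of gp130 signalling, was at 106 FPKM in Th17, 46.3 in Th1 and 22.6 in Th2. Bcl6, the factor of follicular helper cells, was at 23.8 FPKM against 2.71 and 0.527. Together with Il6st, 3 of the 16 genes past the filter were 2-fold or more higher and none 2-fold lower. The targets Cyp1a1 and Cyp1b1 of the aryl hydrocarbon receptor were above 2 FPKM in Th17 and not in Th1 or Th2. Cyp1a1 was at 2.19 FPKM against 0.104 and 0.102, and Cyp1b1 at 2.29 with both others at 0. Cyp1a1 was also at 2.37, 9.55 and 1.80 FPKM in the WT iTreg libraries. Of the 7 loci of this list past the filter, 3 were higher (Ahr and these 2), 3 lower and 1 between, and the median of that list changed sign with the scaling.

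**Figure D2:**
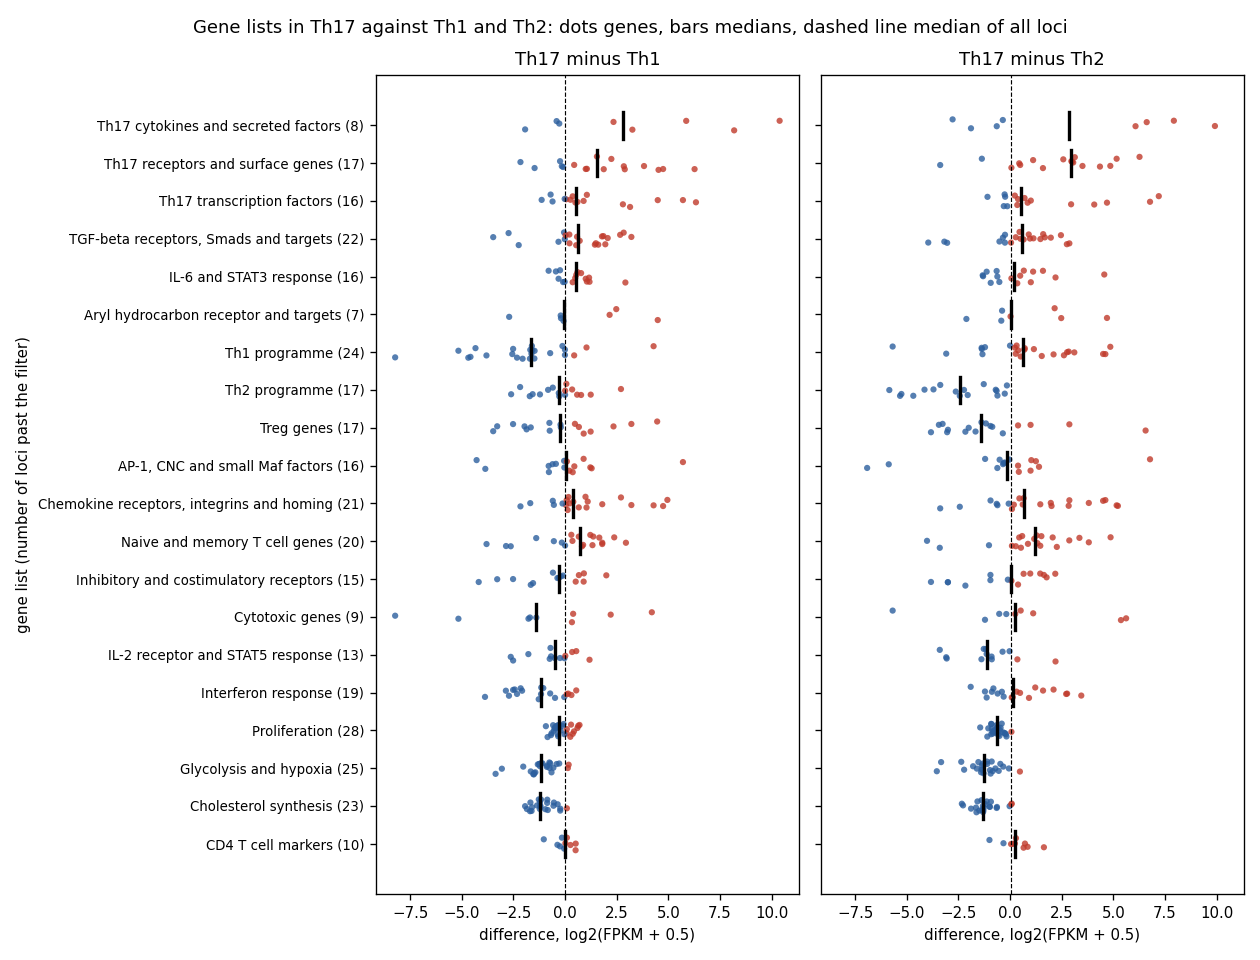
Each dot is a listed gene that passed the filter, by its difference between Th17 and Th1 (left) or Th2 (right) as log2(FPKM + 0.5); bars are list medians and the dashed line is the median of all 10355 loci, close to 0. The Th17, TGF-β and naive T cell lists have medians above 0 in both panels, and glycolysis and cholesterol synthesis have medians below -1 in both.

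The lineage factors and cytokines of Th1 and Th2 separated those 2 cultures, and Th17 stood near the lower of them. Tbx21 was at 35.5 FPKM in Th1, 0.0198 in Th2 and 1.01 in Th17, and Ifng, the Th1 cytokine, at 12.4 in Th1 and 0 in both others. Gata3 was at 102 FPKM in Th2, 9.77 in Th1 and 5.31 in Th17, and Il4 at 18.6 in Th2, 0.118 in Th1 and 0 in Th17. Il13 was at 6.02 FPKM in Th2 and 0 in both others, while Il5 stayed under the filter. Of 24 Th1 genes past the filter 15 lay between, 2 were 2-fold or more higher in Th17 and 6 lower. The 2 higher were the chemokine receptor genes Cxcr6 (15.2 FPKM against 0.307 and 0.192) and Cxcr3 (3.07 against 1.24 and 0). Of 17 Th2 genes past the filter 5 were 2-fold or more lower in Th17 than in both and none higher. Among these 5 were Nfil3, a bZIP factor (14.7 FPKM against 49.3 and 158), and the cytokine gene Il24 (0.0563 against 2.01 and 31.4).

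Receptors for homing and genes of naive and memory T cells were another group higher in Th17. Gpr15, a receptor that guides T cells to the large intestine, was at 57.7 FPKM against 0.0434 in Th1 and 0.0427 in Th2. Cxcr5, the receptor for entry into B cell follicles, was at 21.0 FPKM against 0.195 and 0.0770. Tcf7, which encodes TCF-1, was at 719.8 FPKM in Th17, 93.0 in Th1, 69.7 in Th2 and 635 in naive cells. For Tcf7 the Th17 culture thus stood near the fresh cells and the other 2 below them. The level was not particular to Th17, with WT iTreg libraries at 585, 605 and 555 FPKM. S1pr1, the receptor for exit from lymph nodes, was at 106 FPKM against 30.0 and 7.05. Its level was 182 FPKM in naive cells and 277, 276 and 271 in WT iTreg cells. Foxo1 (70.9 against 22.1 and 28.0) and Klf2 (86.5 against 24.5 and 35.1), factors of quiescence and recirculation, were likewise higher. Of 20 naive and memory genes past the filter 7 were 2-fold or more higher and 3 lower, with medians of 0.74 and 1.23. The 3 lower were the survival gene Bcl2 (6.95 FPKM against 45.6 and 78.2), the inhibitor of E proteins Id3 (smaller of its 2 differences -1.02 on the log2 scale) and Dapl1 (1.94 against 33.6 and 39.1). Of 21 homing genes past the filter 7 were 2-fold or more higher and 1, the β3 integrin Itgb3, lower.

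Other loci among the 10 with the largest smaller difference were Wdr69, Aqp3 and Sgk1. Sgk1, a kinase that phosphorylates Foxo1 and responds to salt, was at 79.8 FPKM in Th17, 0.975 in Th1, 1.37 in Th2 and 57.3 in naive cells. Aqp3, a channel for water and glycerol, was at 132 FPKM against 2.27 and 2.38. Wdr69 (chromosome 1, 83156337 to 83207147), which lies beyond the end of Ccl20 (83115742), was at 28.2 FPKM in Th17, 0.0410 in Th1 and 0 in Th2. Nt5e (CD73), an ectoenzyme that makes adenosine from AMP, was at 312 FPKM against 13.7 and 2.80. WT iTreg libraries held it at 82.8, 87.7 and 89.1 FPKM. The cysteine protease gene Ctsw (182 against 38.9 and 3.20) and Klrd1 (CD94; 23.1 against 0.783 and 0.0701), known from cytotoxic cells, were also higher. Of 9 cytotoxic genes past the filter 3 were higher, 3 lower and 3 between, beside 42.4% higher and 40.3% lower among all 10355 loci. The difference was 2-fold or more for Ctsw and Klrd1 and, in the other direction, for Gzmb and Fasl. Cd8a and the NK receptor gene Ncr1 were at 0 in Th17, and Klrb1c was at 0.171 FPKM. With Klrd1 they belong to a list of CD8, NK and γδ T cell markers. That list summed to 28.2 FPKM in Th17, 7.77 in Th1, 7.83 in Th2 and 18.6 in naive cells. Of its 2 loci past the filter 1, Klrd1, was higher and 1 lower.

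Loci that were lower in Th17 were led by Gzmb, which encodes granzyme B. It stood at 251 FPKM in Th1, 42.6 in Th2, 0.339 in Th17 and 0.362 in naive cells, a smaller difference of -5.68 on the log2 scale. Slamf7, a receptor of the SLAM family, was at 1.02 FPKM against 51.0 and 52.8, and Pglyrp1, a peptidoglycan recognition protein, at 0.969 against 48.0 and 54.7. The secreted glycoprotein gene Stc2 was at 0.776 FPKM against 36.8 and 95.8. For Slamf7, Pglyrp1 and Stc2 the Th17 culture thus stayed near or under 1 FPKM while both others exceeded 30. The other 6 of the 10 were Atf3, Selenbp1, Gpm6b, the complement gene C3 (0.0417 FPKM against 8.42 and 16.5), the Dickkopf receptor gene Kremen2 and Fam71b.

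Inhibitory and costimulatory receptors differed in both directions. Of 15 past the filter 5 were higher, 7 lower and 3 between, beside 42.4% higher and 40.3% lower among all 10355 loci. By 2-fold or more 1 was higher (Cd96, 14.9 FPKM against 3.36 and 5.09) and 4 were lower. Cd96 stood above its Th17 level in naive cells (51.0 FPKM) and in WT iTreg cells (90.9, 97.9 and 87.1). Tnfrsf9 (4-1BB) was at 35.9 FPKM in Th17, 354 in Th1 and 516 in Th2. Tnfrsf18 (GITR) was at 64.4 FPKM against 371 and 521, and Tnfrsf4 (OX40) at 119 against 379 and 536. Lymphotoxin α (Lta) was at 9.42 FPKM against 56.2 and 83.9. Cd226, an activating receptor, was the other of the 4 lower receptors, at 0.216 FPKM against 12.5 and 5.27. Cish, a STAT5 target, was at 22.0 FPKM against 76.6 and 188, and Il2ra (CD25) at 138 against 232 and 361. Of 13 genes of the IL-2 receptor and STAT5 list past the filter 8 were lower, 3 of them 2-fold or more, and 1, Socs3, was higher. The Treg factor Foxp3 stayed at 1.35 FPKM in Th17, 0.308 in Th1 and 0.226 in Th2, under the filter.

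Glycolysis and cholesterol synthesis held more members 2-fold lower in Th17 than any other list, 14 and 13. Under a common total over the loci of 300 bp or more they held 10 and 12, and the glycolysis median against Th1 was -0.99. Slc2a3, a glucose transporter, was at 44.4 FPKM in Th17, 461 in Th1 and 523 in Th2. Ero1l, an oxidase of the endoplasmic reticulum that hypoxia induces, was at 26.6 FPKM against 225 and 273, and Hk2, which phosphorylates glucose, at 13.7 against 44.3 and 65.6. The enzymes Aldoc (36.0 against 148 and 187) and Pgk1 (698 against 1672 and 1817) were lower too. Of 25 glycolysis and hypoxia genes past the filter 23 were lower, 14 of them 2-fold or more, and 1, P4ha1, was higher, with medians of -1.16 against Th1 and -1.28 against Th2. Hif1a, the hypoxia factor, was at 259 FPKM in Th17 against 201 and 143, so its own transcript was not lower. Fresh naive cells were lower still for several of them, with Pgk1 at 29.3 FPKM and Hk2 at 0.110. So were the WT iTreg cultures, with Hk2 at 0.447, 0.261 and 0.772 FPKM and Slc2a3 at 11.6, 11.2 and 11.4. The list summed to 5086 FPKM in Th17 and to 873 to 985 in WT iTreg cells. Glycolytic enzymes with many processed copies in the genome, such as Gapdh, Aldoa and Pgk1, are uncertain because only reads with a unique position were used, per the labels' protocols.

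Cholesterol synthesis genes were lower as well. Lss, which closes the sterol rings, was at 11.2 FPKM in Th17 against 44.3 in Th1 and 58.6 in Th2. Acat2, which joins acetyl-CoA units at the head of the pathway, was at 14.8 FPKM against 48.4 and 56.0, and the sterol methyl oxidase gene Sc4mol at 21.9 against 80.1 and 69.5. Srebf2, which encodes the factor that drives these genes, was at 81.4 FPKM against 120.4 and 128, a smaller difference than the median of the list. Of 23 loci past the filter 20 were lower, 13 of them 2-fold or more, none was higher, and the medians were -1.19 and -1.29. Proliferation genes differed less. Of 28, 19 were lower, 1 was higher and 8 lay between, none by 2-fold, with medians of -0.30 and -0.63, and Mki67 was at 99.3 FPKM against 109.6 and 166.

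**Figure D3:**
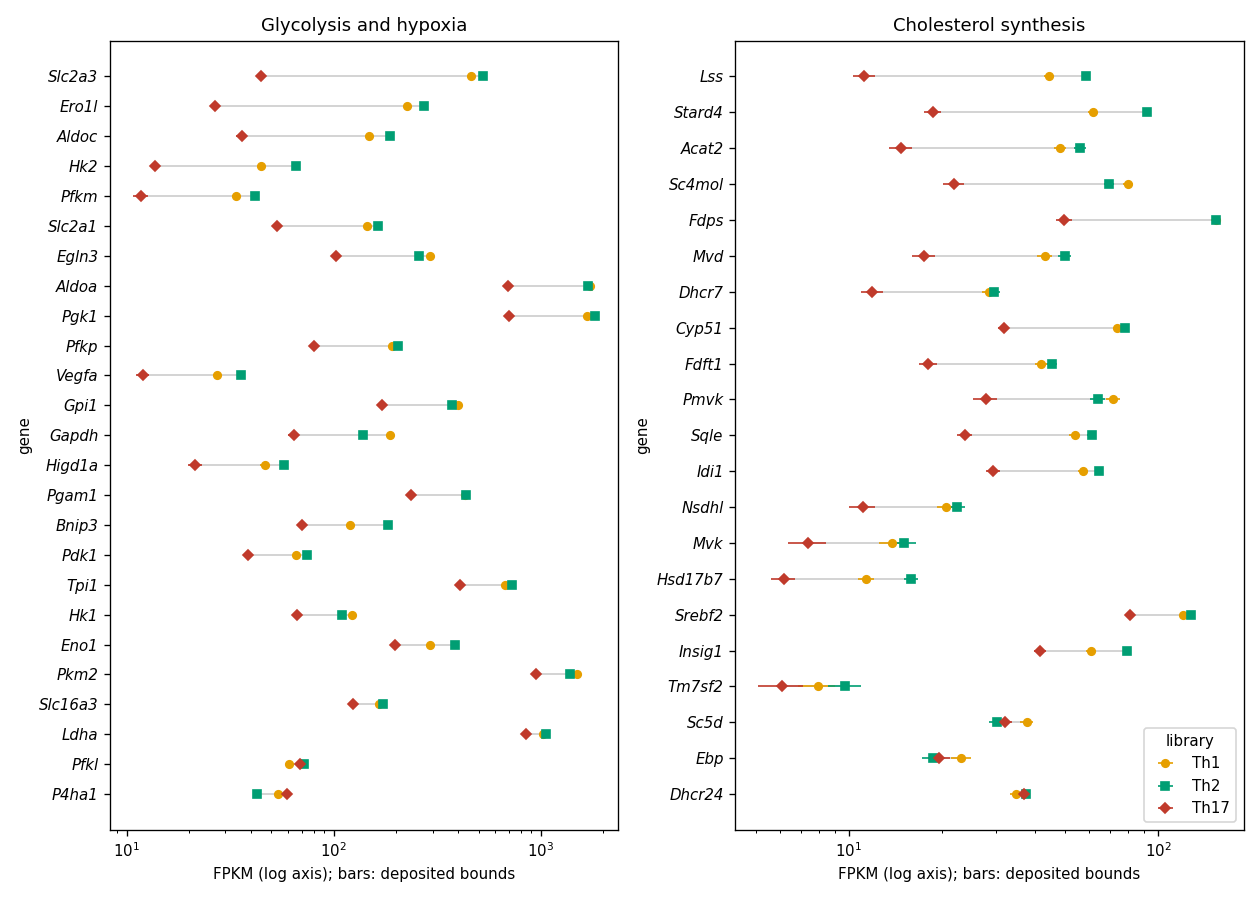
FPKM on a log axis for the 25 genes of the glycolysis and hypoxia list (left) and 21 of the 23 loci of the cholesterol synthesis list (right) that passed the filter, in the Th1, Th2 and Th17 libraries; bars are the deposited confidence bounds and cover counting error only. Th17 (diamonds) lies left of both other libraries for 23 genes on the left and 18 on the right.

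Genes of MHC class II stood apart from their partners. H2-Ab1, a β chain, was at 16.3 FPKM in Th17 against 97.2 and 117, and Cd74, the invariant chain, at 2.02 against 30.4 and 29.3. The α chain H2-Aa was at or under 0.322 FPKM and H2-Eb1 at or under 0.643 in the same libraries, and the dendritic cell marker Itgax at or under 0.0404. Of the 11 genes on this marker list 3 passed the filter, all lower in Th17: H2-Ab1, Cd74 and Batf3 (0 FPKM against 6.77 and 59.9). In the 3 WT iTreg libraries Cd74 was at 122, 16.3 and 65.1 FPKM and H2-Ab1 at 45.1, 4.34 and 19.7. The part of other cell types in the values of these 3 genes was not tested. Interferon response genes gave no common picture, with 3 of 19 higher, 7 lower and 9 between. The guanylate binding protein gene Gbp2 was at 745 FPKM in Th17, 765 in Th1 and 67.8 in Th2.

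Levels of members were also read in libraries that the rule did not use, from naive cells and from WT iTreg cultures. In bulk RNA fewer cells of a type and less RNA per cell cannot be told apart. Maf was at 40.7, 49.1 and 40.5 FPKM in the WT iTreg libraries against 0.998 in naive cells, and Ccr6 at 26.2, 22.4 and 30.6 against 0. Aqp3 was at 46.8, 46.9 and 45.6 FPKM against 2.85. In these 3 genes each WT iTreg library lay above the naive library, and in all but Ccr6 the Th17 library lay above them. Ccl20, at 3.30, 1.63 and 2.63 FPKM, and Il17f, at 11.4, 9.16 and 8.67, also lay above naive cells, where both were at 0, and far below Th17. Other members were low there: Il17a was at 0.720, 1.30 and 0.957 FPKM in WT iTreg cells, Il1r1 at most at 0.150, and Il21 and Il23r were near 0. Of the 531 members higher by 2-fold, 163 (30.7%) were at least 2-fold above naive in each of the 3 WT iTreg libraries, against 12.8% of all 10355 loci. Of the 653 lower members 99 (15.2%) were. Levels at least 2-fold below naive in each of the 3 were found for 11 higher members (2.07%) and 41 lower ones (6.28%), against 2.39% of all loci. A level under 1 FPKM in naive cells was found for 160 of the 531 higher members, 284 of the 653 lower members and 1211 of all 10355 loci. Naive and iTreg libraries differ in sex, as stated above, and in stimulation, IL-2 and TGF-β1. The part of each was not tested.

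**Figure D4:**
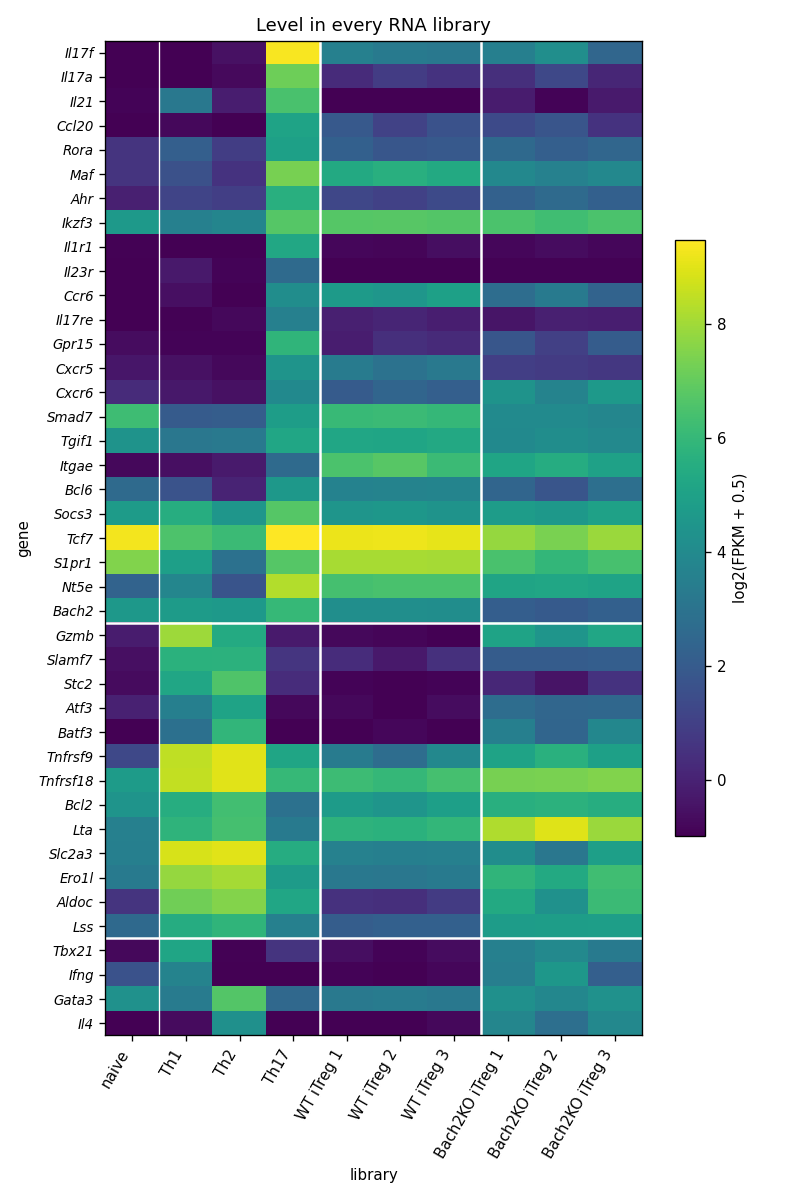
Colour gives log2(FPKM + 0.5) of named genes (rows) in the 10 RNA libraries (columns). The upper block holds genes higher in Th17 than in Th1 and Th2, the middle block genes lower in Th17, and the bottom block 4 lineage genes of Th1 and Th2; Maf, Ccr6 and Ikzf3 are also high in iTreg libraries, whereas Il17a, Il1r1 and Il23r are near 0 there.

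How the members behaved without Bach2 was read from the 3 Bach2KO and 3 WT iTreg libraries, which share no sample with the helper cultures. Bach2 was at 17.9, 17.7 and 17.2 FPKM in WT and 3.91, 3.39 and 4.12 in Bach2KO. Over all 11473 loci with a mean of at least 0.5 FPKM, limma called 8566 (74.7%) after Benjamini-Hochberg adjustment at 0.05, 4709 up (41%) and 3857 down (33.6%). Under a common total over the loci of 300 bp or more the split was 3265 up and 5434 down, and under quantile normalization 3710 and 4895. The median difference of all loci moved from 0.07 to -0.19 and -0.10. The labels do not say whether replicates are separate animals, so these p-values measure only the spread between samples.

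Members higher in Th17 fell more often than they rose without Bach2, and members lower in Th17 rose more often than they fell. Of the 531 higher members 276 (52%) were called down and 102 (19.2%) up, while 65 were too low to test. Of the 653 lower members 392 (60%) were called up and 58 (8.88%) down, and 100 were too low to test. Counted the same way over all 10355 loci, 42.6% were up and 32.3% down, and among the 10077 tested 43.8% and 33.2%. A gene near 0 in WT was tested only if it was high enough in Bach2KO, and with no minimum beyond a value above 0, 109 of the higher members were up and 281 down, and 429 of the lower members up and 60 down. With no such minimum 28.4% of all 18199 tested loci were up and 24% down. Under a common total 66 higher members were up and 316 down, 14.1% and 67.7% of those tested. Among the lower members 346 were up and 85 down, 62.8% and 15.4% of those tested. Of all 11469 loci tested under that total 28.5% were up and 47.4% down.

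The same contrast took the leading members apart. Maf fell from 40.7, 49.1 and 40.5 FPKM in WT to 14.3, 11.8 and 14.4 in Bach2KO, a difference of -1.65 on the log2 scale (SE 0.108, limma adjusted p = 3.7e-05). Gzmb rose from at most 0.0783 FPKM to 33.6, 21.5 and 36.7, a difference of 5.80 (SE 0.205, limma adjusted p = 4.3e-06). Atf3 went from at most 0.139 FPKM to 6.26, 5.09 and 5.13 (difference 3.38, SE 0.132, limma adjusted p = 5.8e-06). In these 3 genes, picked from the members, the 2 genotypes did not overlap. The share of loci without overlap was not counted, and limma called 74.7% of all 11473 loci. Il17f, at 11.4, 9.16 and 8.67 against 10.9, 17.8 and 4.96, and Il17a were not called (limma adjusted p = 0.94 and 0.91), and the sign of their differences changed with the scaling. Gpr15 was a member higher in Th17 that rose, from at most 0.831 FPKM to 3.01, 1.49 and 3.66 (limma adjusted p = 0.0053). By list, 23 of the 25 glycolysis and hypoxia genes that passed the helper filter and all 23 such cholesterol loci rose, as did 28 of 28 proliferation genes, while 16 of 20 naive and memory genes fell. Of the TGF-β list 12 of 20 tested genes fell, Smad7 among them (15.8, 15.7 and 13.7 FPKM in Bach2KO, difference -2.11, SE 0.070, limma adjusted p = 3.5e-06), and 3 rose. Differences for glycolysis, cholesterol and proliferation stood beside higher summed FPKM in Bach2KO libraries (545183 to 553892) than in WT (432450 to 437849), and their part in the counts was not tested beyond the scalings given.

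**Figure D5:**
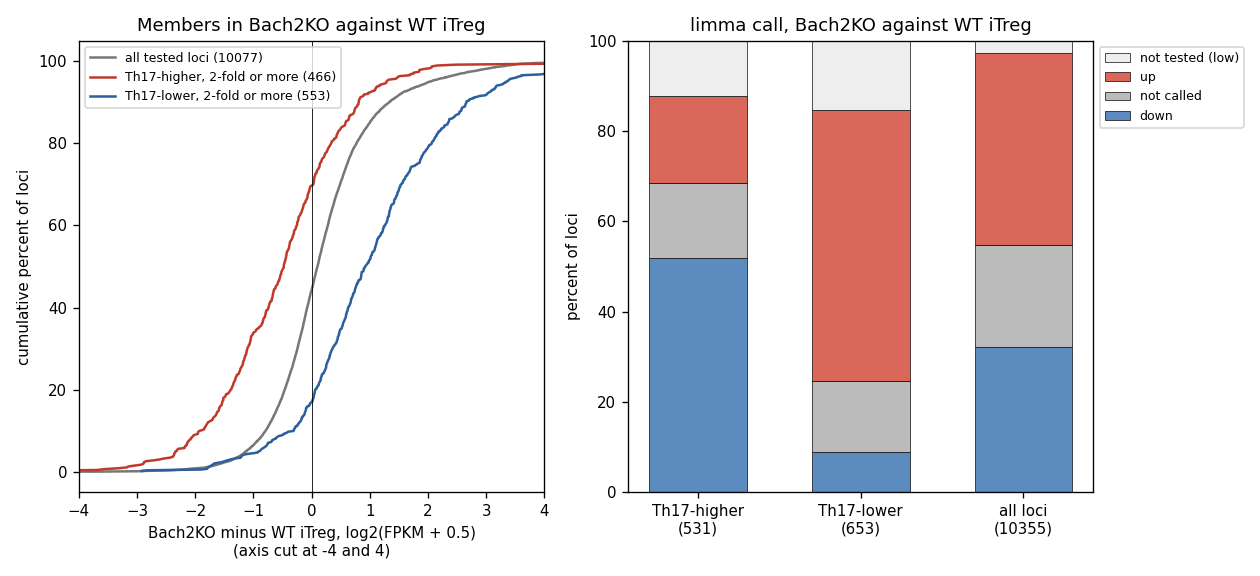
Left, cumulative percent of loci by the difference between Bach2KO and WT iTreg cells on the log2(FPKM + 0.5) scale (n = 3 libraries each) for Th17-higher members, Th17-lower members and all tested loci that passed the helper filter; right, the share called up, down or not called by limma, or not tested. The curve of Th17-higher members lies left of that of all loci and the curve of Th17-lower members right of it, with 52% of 531 down and 60% of 653 up.

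Bach2 peaks in WT iTreg cells were found near members of both directions. The authors' list holds 22494 peaks from 1 ChIP library. A peak lay within 10 kb of the start of 261 of 517 higher members with a known start (50.5%) and of 288 of 641 lower members (44.9%), against 4369 of 10210 loci overall (42.8%). Within 1 kb the shares were 21.3%, 16.2% and 19.5%. Among the cytokine genes a peak had its summit at -7356 bases from the start of Il17f, with the authors' fold enrichment of 80.0, and another at 9690 bases from the start of Il17a, with 47.06. Ahr, Ccr6, Maf, Smad7 and Bhlhe40 had 1 or more peaks within 10 kb, whereas Il21, Il1r1, Il17re, Rora and Gzmb had none.

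Bach2 pairs with small Maf proteins on the Maf recognition element, searched here as TGCTGANTCA, and shares with AP-1 the core TGANTCA that this element contains. Both were searched on both strands in 201 bases around each summit. The core was in 40.1% of the 419 peaks near higher members, 39.4% of the 442 near lower members and 43.1% of all peaks, and the longer element in 8.11%, 7.69% and 10.4%. The share near members was thus close to that of all peaks in either direction. The peaks given above for Il17f and Il17a held neither motif. Sites near 3 higher members (Ahr, Cxcr5, Il23r) and 5 lower members (Itgb3, Atf3, Batf3, Tnfrsf9, Il12rb1) are shown, mm9, 5′ to 3′, with the matched motif in capitals. These loci were picked from the named members with a site, and other named members with a site are not shown.
Ahr, chr12:36218005-36218054, plus strand: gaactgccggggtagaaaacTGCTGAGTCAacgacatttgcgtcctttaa
Cxcr5, chr9:44336480-44336529, plus strand: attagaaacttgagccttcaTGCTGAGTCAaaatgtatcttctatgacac
Itgb3, chr11:104473081-104473130, minus strand: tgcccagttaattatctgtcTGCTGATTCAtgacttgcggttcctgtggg
Il23r, chr6:67433114-67433160, plus strand: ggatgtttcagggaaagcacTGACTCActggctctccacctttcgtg
Atf3, chr1:193017659-193017705, plus strand: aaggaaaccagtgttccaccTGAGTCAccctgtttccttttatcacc
Batf3, chr1:192927008-192927054, plus strand: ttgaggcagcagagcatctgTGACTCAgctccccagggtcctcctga
Tnfrsf9, chr4:150291647-150291693, plus strand: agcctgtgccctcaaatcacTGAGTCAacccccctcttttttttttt
Il12rb1, chr8:73335309-73335355, plus strand: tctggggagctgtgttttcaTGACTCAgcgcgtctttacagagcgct
The first 3 hold the full element and the other 5 the core. In Bach2KO against WT iTreg cells, Atf3, Batf3, Tnfrsf9 and Il12rb1 were called up. Ahr was called up and Cxcr5 down, and Itgb3 was not called. Dapl1, another lower member with a core site, was called down. Il23r was too low to test. Higher members with a core site not shown went both ways, for example Gpr15, Cxcr6 and Cxcr3 up and S1pr1, Tgif1, Ikzf3 and Mafk down. Of all 653 lower members 60% were called up and 8.88% down, and of all 531 higher members 19.2% and 52%. Over all 10355 loci the shares were 42.6% and 32.3%. Whether calls differ between members with and without a site was not tested.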

How the data were processed

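RNA was measured in 10 libraries, of which the Th1, Th2 and Th17 libraries enter the main comparison. The deposited FPKM values and their confidence bounds were made by the authors with TopHat and Cufflinks from unique 50-bp reads on mm9, per the labels' protocols and the file headers. Their versions and the annotation: not given in the sources used here. For loci with a single start the bounds lie 2 Poisson SD from the value and give the implied reads. Peaks were called by the authors with MACS 1.4.0beta on mm9 from 8992019 ChIP and 9999999 input tags, per the file headers. Per the file headers, each peak's deposited tag count is a raw count, the fold enrichment is the authors' ratio of tags to local background, the score is 10 times the deposited −log10 of the p-value, and the FDR in percent is also MACS's per the file headers. Alignment with Bowtie is credited to the submitters' processing notes.

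Differences are on log2(FPKM + 0.5), a scale that understates changes near 0, and no fold is given against a library at 0. The Bach2KO and WT iTreg comparison used limma 3.58.1 under R 4.3.3 (two-sided, trend, Benjamini-Hochberg over all loci with a mean of at least 0.5 FPKM), tested on simulated data. Single libraries stayed out of that fit. The rest used Python 3.11.15 with pandas 2.3.3. Replicate numbers did not pair the iTreg libraries.

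Members and the 26 gene lists were chosen with earlier results of these data known. Named genes are the 10 largest differences in each direction among loci of at least 5 FPKM (unique symbols, no microRNA, snoRNA or predicted genes), up to 4 per list and direction, and lineage genes fixed by name. A few genes that this rule names are not reported here. Genes given beside these as pathway context were chosen after their values were seen. A peak was near a member when any part of it lay within 10 kb of the start. Alternatives covered pseudocount, filters, locus length, scaling, confidence bounds, left-out libraries and peak distance or score.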

Additional observations from a re-analysis of the deposited data

How the results depend on the processing

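The counts of loci 2-fold apart in Th17 lay between 428 and 724 higher and between 523 and 763 lower over all alternatives, within 1.5 times the reported counts, and no named difference of 2-fold or more changed direction in any of them. Equal sums (1 common total over loci of 300 bp or more) kept all 531 higher loci and 523 of the 653 lower ones. Of the 846 recomputed differences of 95 named loci, 745 moved by less than their counting error. Percentages of members with a Bach2 peak moved with the definition, to 81.8% of higher and 83.3% of lower members within 50 kb (79.9% of all loci), 21.3% and 16.2% within 1 kb (19.5%), and 34.2% and 30.6% at a deposited score of at least 100 (27.3%).

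In Bach2KO against WT iTreg cells, equal sums lowered the higher members called up from 102 to 66, and the other counts stayed within 1.5 times. Leaving out 1 library gave 4245 to 4703 loci up and 3476 to 3941 down, with 87 to 101 higher members up and 263 to 283 down, and 369 to 398 lower members up and 52 to 61 down. Same-numbered libraries did not deviate together (correlations of -0.038, -0.0382 and 0.006), and a replicate block gave 4346 up and 3540 down, with 91 and 266 higher and 381 and 54 lower members. Of 358 recomputed values of 28 named genes, 329 kept direction and call, 16 lost a call (all of Socs3 or Rora), 3 gained one (Aqp3 under quantile normalization and equal sums, Selenbp1 without Bach2KO replicate 2) and 10 changed sign, these for uncalled genes. Quantile normalization gave -0.094 for Il17f and -0.152 for Il17a, and equal sums gave -0.220 and -0.138. With 1 library left out at a time, Il17f lay between -0.363 (without Bach2KO replicate 2) and 0.507 (without Bach2KO replicate 3), Il17a between -0.288 and 0.270 and Ccl20 between -0.606 and 0.020, each lowest and highest without the same 2 libraries. The causes were not tested. The limits are 1 library per helper culture, bounds that cover counting error only, and 12.4 M implied reads in the shallowest of these 3 libraries.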
